A study of Homo sapiens with 6 samples.

Results

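The ATF4 genes of the integrated stress response described here are 10 genes: the transcription factors ATF4, ATF3, ATF5 and DDIT3, and the targets TRIB3, DDIT4, SESN2, ASNS, CHAC1 and SLC7A11. They were chosen by symbol and are 10 of the 60609 genes in the files, and each of the 10 was among the 20725 genes with enough reads to be tested. They were measured in OCI-AML5, an established human acute myeloid leukemia line that is grown with GM-CSF, the growth factor all cultures received. Cells were exposed for 24 hours to DMSO, the solvent, or to 1 μM S767, a molecule found in a screen of primary leukemia specimens, with 3 stranded poly(A) RNA libraries in each group. Replicate numbers 1 to 3 occur in both groups. All libraries come from a single cell line, at a single dose and time. The study's methods describe the treatment as done in triplicate, and neither they nor the labels say whether libraries of a group came from separate cultures, so the p-values measure the spread between these samples, which may be partly technical.

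In the integrated stress response, kinases that sense heme or iron shortage, misfolded protein, viral RNA or amino acid shortage phosphorylate the translation factor eIF2. Most protein synthesis then slows, while the upstream reading frames of ATF4 mRNA allow more ATF4 protein to be made. ATF4 pairs with other bZIP proteins, among them C/EBP proteins, and drives genes for amino acid supply, redox balance and, through DDIT3, cell death. Since ATF4 is controlled largely at translation, its mRNA need not follow its protein. The mRNAs of its targets are therefore the usual transcript readout of the pathway.

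The composite element through which ATF4 and C/EBP partners bind has the letters TGATGNAA. It was looked for on both strands of the promoter windows of RefSeq (GRCh38.p14), which run from 250 bases before to 50 bases after a gene's start. A gene can have several windows. Of the 10 genes, 9 had windows, 17 in all. Of these 9 genes 3 held the element in at least 1 window, against 4.46% of the 27305 genes with a window. By window the share was 3.62% of 35116, and genes were not matched for their number of windows. The 3 matches are shown because the factor that names the pathway is known to bind such letters. Each is given 5′ to 3′ on the strand of its gene with the element in capitals. Distances are from the RefSeq start of the window, which differs from the outermost start of the gene in GENCODE 29 given with positions below. The first base of the element lay 191 bases before the start in ATF3 (chr1:212565216-212565223), 68 in ASNS (chr7:97872469-97872476) and 209 in CHAC1 (chr15:40953262-40953269), where the match is on the opposite strand.
ATF3: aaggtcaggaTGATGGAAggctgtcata
ASNS: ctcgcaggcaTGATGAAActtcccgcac
CHAC1: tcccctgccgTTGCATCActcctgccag
The stricter form TGATGCAA, which every match of the looser letters with C in the open place contains, occurred in CHAC1 only, and in 1.08% of all genes with a window. The cyclic AMP response element TGACGTCA occurred in 0 of the 9 genes and in 2.25% of all. The AP-1 element TGANTCA was present in ATF5 and DDIT3 (9.37% of all genes) and the E-box CACGTG in ATF4 (8.77%). A match is a string of letters in the window and not evidence of binding, and elements farther away were not searched.

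Gene counts summed to between 149994700 and 258029564 in each library, so that the spread between libraries rather than counting limits most values. Levels of the 9 myeloid markers differed widely. SPI1, the master factor of myeloid cells, lay between 214 and 259 TPM, CEBPA between 97.0 and 114 and CD33 between 88.6 and 106. PTPRC, at 65.73 to 83.86 TPM, and MPO, at 12.55 to 26.63, came next. CSF2RA, at 2.9 to 3.89 TPM, and CD34, at 0.61 to 2.65, were low, and KIT and ANPEP stayed under 1 TPM. Of 12 markers of other cell types, 11 stayed under 1 TPM in every library and CD3E was listed at 0. The exception was PECAM1, which some myeloid cells also express, at 2.13 to 3.37 TPM. The summed myeloid markers ranged from 518 to 572 TPM in DMSO and from 510 to 574 in S767.

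Most of these genes differed little between S767 and DMSO, although the intervals were wide for CHAC1, DDIT4 and ASNS. Under edgeR's quasi-likelihood test without a replicate block, 0 of the 10 genes had an adjusted p under 0.05, against 0.00483% of all genes tested (ALAS1 alone, the first enzyme of heme synthesis). At an unadjusted P under 0.05 the same test picked 1 of the 10, SLC7A11, against 3.53% of all genes. DESeq2 and limma-voom also called 0 of the 10, and called 25 and 1 of all genes. The log2 fold changes of the fit without the block had a median of -0.04, against -0.00024 over all genes tested. In it 7 of the 10 lay within 0.1 of 0, as did 61.4% of all genes, a share not matched for level. The 7 include ASNS by STAR counts, which lay at 0.24 with RSEM counts, and CHAC1, whose 95% interval ran from -1.09 to 1.21. In that fit, 1 library was also left out at a time and the other of its pair kept. The median then ran from -0.15 (without DMSO replicate 2) to 0.069 (without DMSO replicate 3), so its sign depended on the library left out. With the replicate number as a block, the test called 1 of the 10, SLC7A11, which fell, against 3.23% of all genes called, 1.08% lower and 2.16% higher. In that fit 4 of the 10 had an unadjusted P under 0.05, all in the lower direction (ATF5, DDIT4, TRIB3 and SLC7A11), against 7.39% of all genes in that direction and 9.38% in the other. In S767, 3 of the 10 genes were lower in all 3 pairs and 0 were higher in all 3, against 17.8% and 19.9% of all genes. The groups did not overlap for 1 gene, against 9.21% of all genes. The study took genes as up-regulated at limits on P and fold change. At a P under 0.05 and a log2 fold change beyond 0.4, with the same limits applied here to the lower side, 0 of the 10 were higher and 1 was lower, against 0.429% and 0.796% of all genes. In bulk RNA, a change in the RNA of each cell and a change in the share of cells that express a gene cannot be told apart.

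**Figure D1:**
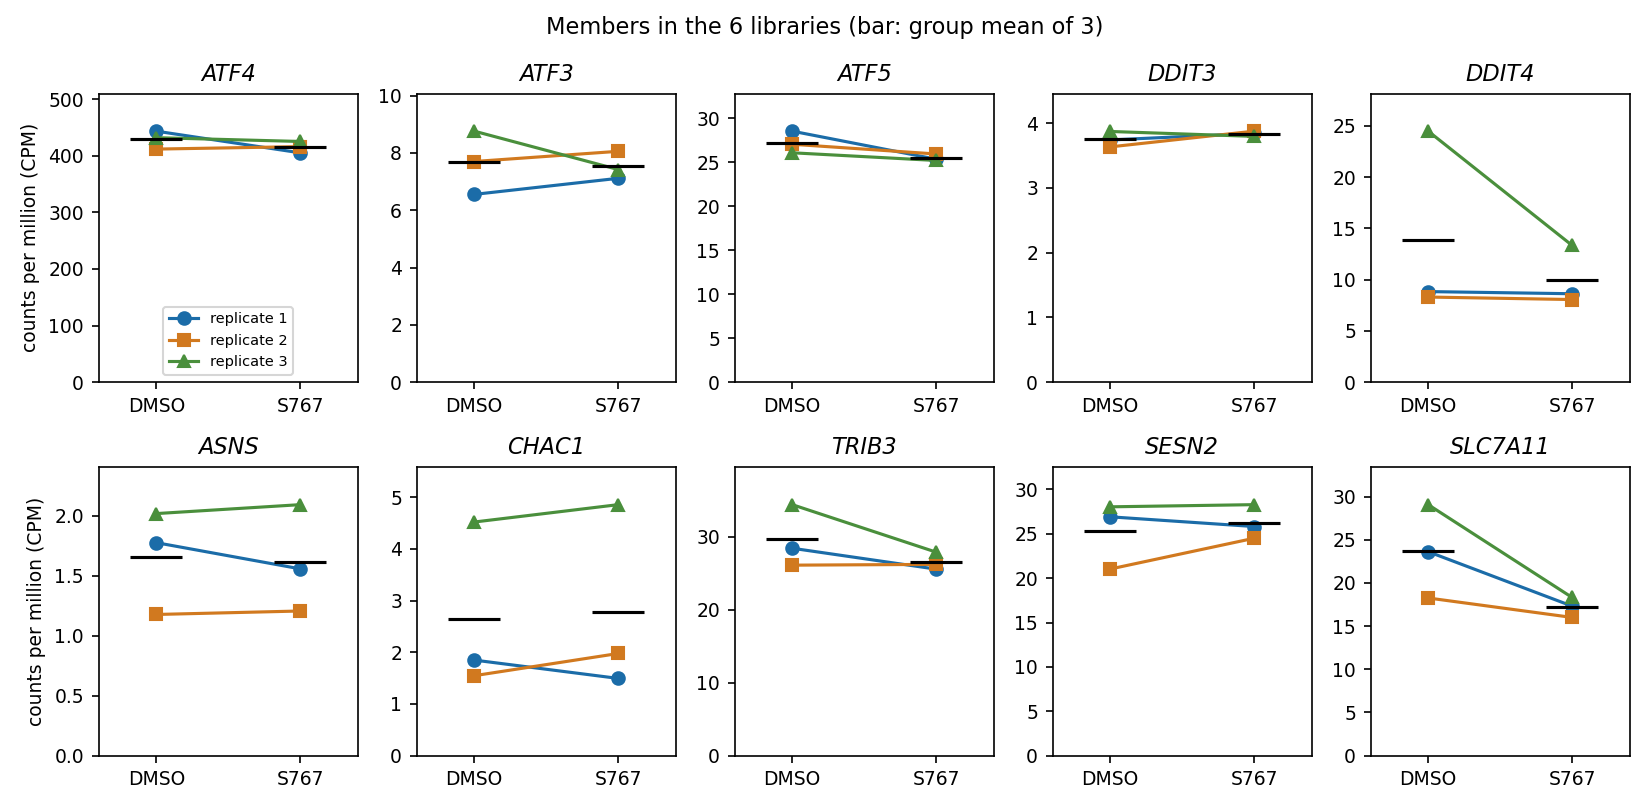
CPM (strand-specific STAR counts over TMM-scaled library sizes) of the 10 genes in each of the 6 libraries, on axes that start at 0. Lines join DMSO and S767 libraries with the same replicate number and black bars mark group means. All 3 lines slope down for SLC7A11, ATF5 and DDIT4, and for DDIT4 the slope is steep in replicate 3 alone.

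**Figure D2:**
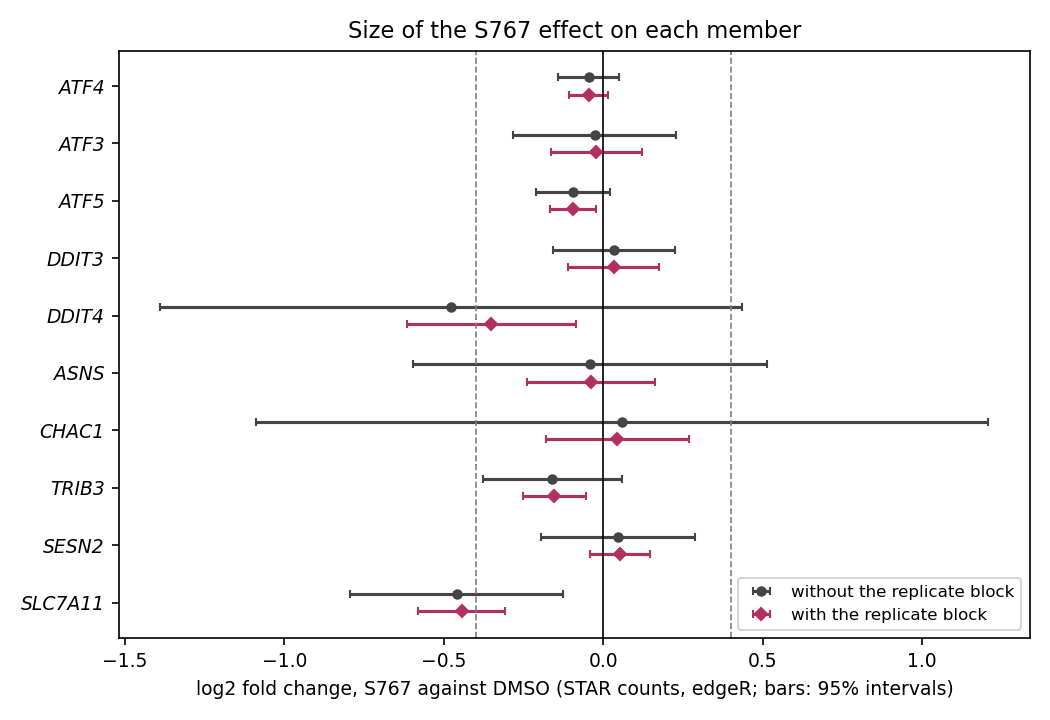
Log2 fold change of each gene in S767 against DMSO with its 95% interval, from edgeR without (grey circles) and with (red diamonds) the replicate number as a block. The dashed lines mark 0.4 in either direction. The interval of SLC7A11 lies below 0 in both fits, and with the block all 10 intervals end below 0.27.

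ATF4 itself (ENSG00000128272, chromosome 22, 39519695 to 39522685 on GRCh38, plus strand), the central factor of the response, was by far the most abundant of the 10. It measured 443, 412 and 432 CPM (STAR counts scaled to library size by TMM) in DMSO replicates 1, 2 and 3 and 405, 416 and 425 CPM in S767. The groups overlapped, and only replicate 1 was lower by more than a few percent, with a difference of -8.64%. The log2 fold change was -0.05 (SE 0.04, 95% interval -0.14 to 0.05). With the block the interval ran from 0.928-fold to 1.01-fold of DMSO. ATF4 protein was not measured.

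DDIT3 (chromosome 12, 57516588 to 57521737, minus strand) encodes CHOP, the bZIP factor that links the response to cell death. It measured 3.74, 3.63 and 3.87 CPM in DMSO and 3.84, 3.88 and 3.79 CPM in S767. All 6 values lay within a narrow band, with the groups overlapping and 2 of 3 pairs slightly higher. The log2 fold change was 0.03 (SE 0.08, 95% interval -0.16 to 0.23). The upper end of that interval is a 1.17-fold level, and 1.13-fold with the block. DDIT3 lies opposite MARS, whose exons share 27.2% of the exon bases of DDIT3, and the forward strand held 65.7 to 69.4% of the reads over it, so its value rests on the strand-specific counts. Without regard to strand the log2 fold change was -0.01.

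ATF3, a bZIP repressor that ATF4 induces and that many other stresses also induce, measured 6.56, 7.70 and 8.76 CPM in DMSO and 7.12, 8.06 and 7.42 CPM in S767. The DMSO libraries spread more widely than the S767 libraries and enclosed them. Pairs 1, 2 and 3 differed by 8.55%, 4.61% and -15.3%. Its log2 fold change was -0.03 (SE 0.11, 95% interval -0.28 to 0.23).

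ATF5, a factor that is translated under the same control as ATF4 and is known for its part in the mitochondrial stress response, measured 28.6, 27.1 and 26.1 CPM in DMSO and 25.4, 26.0 and 25.2 CPM in S767. It was the only one of the 10 genes whose groups did not overlap, with every S767 library below every DMSO library, as in 4.08% of all genes tested (5.12% in the other direction). The difference was small, -6.33% (log2 fold change -0.09, SE 0.05, 95% interval -0.21 to 0.02). With the block the interval was -0.17 to -0.023 (edgeR adjusted p = 0.157), and without DMSO replicate 1 the value of the fit without the block was -0.058. The exact two-sided permutation test gave p = 0.1, the smallest value that 3 against 3 libraries allow. NUP62 lies opposite ATF5 and shares 21.2% of its exon bases, and 40.6 to 42.6% of the reads over ATF5 were on the forward strand.

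TRIB3, a pseudokinase that ATF4 and CHOP induce and that feeds back on both, measured 28.4, 26.1 and 34.4 CPM in DMSO and 25.6, 26.2 and 27.9 CPM in S767. DMSO replicate 3 was the high library, and the groups overlapped. The pairs differed by -10.1%, 0.413% and -18.9%. The log2 fold change was -0.16 (SE 0.10, 95% interval -0.38 to 0.06) and -0.15 with the block (SE 0.05, edgeR adjusted p = 0.0930). Without DMSO replicate 3 it was -0.04.

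DDIT4, also called REDD1, and SESN2 both restrain mTORC1, the kinase complex that promotes growth. DDIT4 (chromosome 10, 72273920 to 72276036, plus strand) measured 8.83, 8.30 and 24.5 CPM in DMSO and 8.62, 8.06 and 13.3 CPM in S767. Replicate 3 stood above the other libraries in both groups, and far above them in DMSO. Pairs 1 and 2 differed by only -2.38% and -2.93%, and pair 3 by -45.5%. The fitted log2 fold change of -0.48 (SE 0.40, 95% interval -1.39 to 0.44) thus came mainly from 1 pair. Without DMSO replicate 3 that fit gave 0.22, but it kept the high S767 replicate 3, so replicate 3 stood in 1 group only. With the block DDIT4 stood at -0.35 (SE 0.12, edgeR adjusted p = 0.156), and with pair 3 left out at -0.04. With pair 1 left out the block fit called it (log2 fold change -0.53, edgeR adjusted p = 7.26e-08), together with TRIB3 (edgeR adjusted p = 0.00472). Only 2 pairs remain in that fit, and pair 3 carries both calls, since TRIB3 differed by 0.413% in pair 2 and -18.9% in pair 3. An antisense gene, DDIT4-AS1, shares 41.2% of the exon bases of DDIT4. Counts made without regard to strand were 33.9 to 38.2% of the strand-specific counts, and the part of the antisense gene in this was not tested.

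SESN2 (chromosome 1, 28259527 to 28282491, plus strand), which also senses leucine, measured 26.9, 21.0 and 28.05 CPM in DMSO and 25.8, 24.5 and 28.3 CPM in S767. DMSO replicate 2 was the low library, and it alone made pair 2 16.5% higher. The other pairs differed by -4.07% and 0.873%. The log2 fold change was 0.05 (SE 0.11, 95% interval -0.19 to 0.29). SESN1, of the same family, is like SESN2 a known p53 target. It measured 35.4, 30.7 and 33.6 CPM in DMSO and 42.0, 40.9 and 44.2 CPM in S767, with no overlap. SESN1 rose by 0.35 on the log2 scale (SE 0.03, edgeR adjusted p = 0.000299 with the block, 0.837 without). SESN3, a FOXO target, fell by 0.14 (SE 0.03, edgeR adjusted p = 0.0323 with the block, 1.00 without). Whether SESN1 and SESN3 differ from SESN2 in their response was not tested.

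CHAC1, an enzyme that breaks down glutathione and the gene of the 10 with the strict composite element shown above, measured 1.85, 1.55 and 4.52 CPM in DMSO and 1.49, 1.98 and 4.86 CPM in S767. Replicate 3 was high in both groups, 2.66 and 2.80 times the mean of the other 2 libraries. Pairs 1, 2 and 3 differed by -19.1%, 27.6% and 7.42%, in no common direction. The log2 fold change was 0.06 with a wide interval (SE 0.50, 95% interval -1.09 to 1.21). With the block the interval narrowed to between 0.882-fold and 1.21-fold.

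SLC7A11 (ENSG00000151012, chromosome 4, 138164097 to 138242349, minus strand) encodes the cystine importer xCT, which supplies cysteine for glutathione and is induced by ATF4 and by NRF2. It measured 23.6, 18.3 and 29.1 CPM in DMSO and 17.3, 16.0 and 18.3 CPM in S767. The S767 value was lower in every pair, with differences of -26.7%, -12.3% and -37.0%. The groups touched, because S767 replicate 3 and DMSO replicate 2 had almost the same level. Without the block the log2 fold change was -0.46 (SE 0.15, 95% interval -0.79 to -0.13, edgeR unadjusted P = 0.0125, adjusted p = 1.00), and the exact two-sided permutation test gave p = 0.2. With the block SLC7A11 fell by 0.44 on the log2 scale (SE 0.06, edgeR adjusted p = 0.00349), to between 0.668-fold and 0.808-fold of DMSO. The size of the difference leaned on pair 3, and without DMSO replicate 3 it was -0.28 in the fit without the block. With any 1 pair left out, the block fit still called it, at -0.33 to -0.56. RSEM expected counts with the block gave -0.46 (SE 0.07, edgeR adjusted p = 0.0200). Its partner in the membrane, the heavy chain SLC3A2, stood at -0.05 (SE 0.07, 95% interval -0.21 to 0.11) and was named here after its value was seen.

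ASNS (chromosome 7, 97852118 to 97872542, minus strand), asparagine synthetase, is a classic ATF4 target, and its level depended on how reads were assigned. STAR counted 175 to 522 fragments per library on it, which is 2.51 to 4.37% of the counts RSEM estimated for the same gene. For the other 9 genes the estimate of RSEM was 0.897 to 1.14 times the STAR count. In GENCODE 29 another gene on the same strand, ENSG00000284707 (97851688 to 97972985), shares 1985 exon bases with ASNS, 44.6% of its exon bases, and STAR does not count a fragment that fits 2 genes. The identifier in the files carries a later version number than that release, so the exact overlap in the annotation used may differ. By STAR counts ASNS measured 1.78, 1.18 and 2.02 CPM in DMSO and 1.56, 1.21 and 2.09 CPM in S767, and its log2 fold change was -0.04 (SE 0.24). By RSEM it measured 32.8, 29.3 and 38.9 TPM in DMSO and 32.8, 34.9 and 47.1 TPM in S767. The first pair was equal and the other 2 were higher in S767, with the groups overlapping. The RSEM log2 fold change was 0.24 (SE 0.17) without the block and 0.23 (SE 0.06, edgeR adjusted p = 0.0819) with it. The direction for ASNS differed between the counting methods, and neither value passed the test. The part of the overlapping gene in this was not tested.

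**Figure D3:**
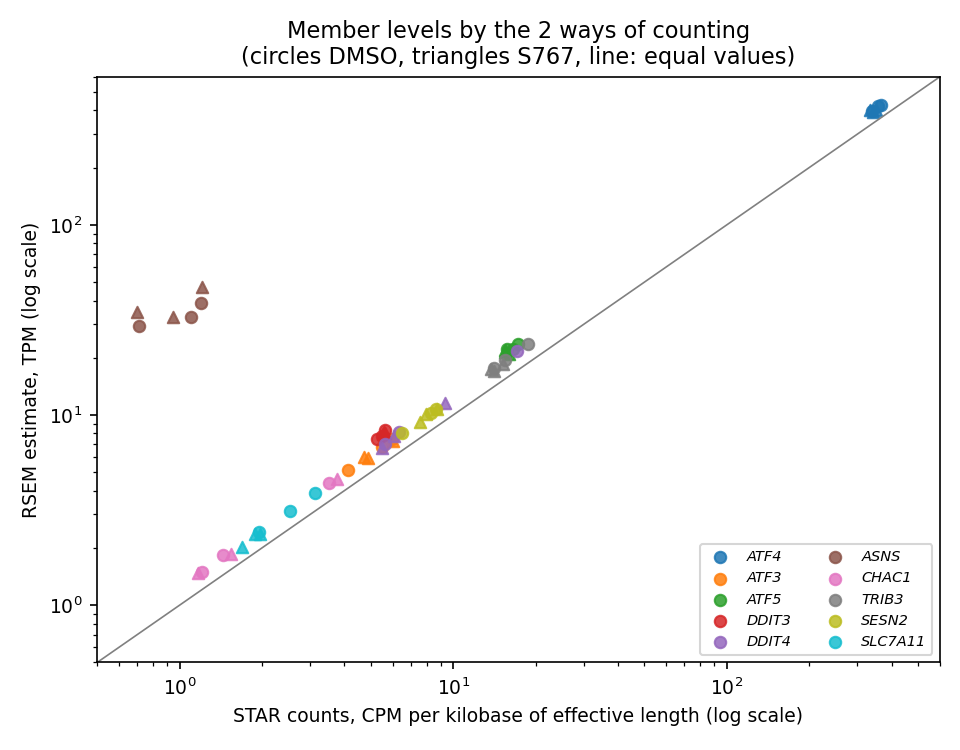
Level of each gene in each library by STAR counts (CPM per kilobase of the effective length, horizontal, log scale) and by RSEM (TPM, vertical, log scale), with DMSO as circles and S767 as triangles. Points of 9 genes run just above the line of equal values and the 6 points of ASNS lie far above it, at 29.3 to 47.1 TPM but about 1 CPM per kilobase.

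Levels were compared between genes in TPM, which allows for transcript length. In DMSO, ATF4 averaged 415 ± 17.6 TPM (SD, n = 3), higher than 98.5% of the genes tested and 12.3 times the next gene. ASNS followed at 33.6 ± 4.85 TPM, then ATF5 at 22.8 ± 0.866 and TRIB3 at 20.2 ± 3.06. DDIT4 at 12.3 ± 8.10, SESN2 at 9.71 ± 1.46, DDIT3 at 7.89 ± 0.453 and ATF3 at 6.47 ± 1.23 formed the middle, and SLC7A11 at 3.16 ± 0.745 and CHAC1 at 2.57 ± 1.58 were lowest. Ranges over the 3 DMSO libraries did not overlap between ATF4 and ASNS, between ASNS and ATF5 or between ATF3 and SLC7A11, and overlapped for every other pair of neighbours. By STAR counts per kilobase ASNS would come last. None of the targets was absent in cells given DMSO, and CHAC1, the lowest, still lay above 46.8% of the genes tested.

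The replicate number went with more of the variation than S767 in 6 of the 10 genes. It has more levels than treatment, so it takes the larger share on average even where neither has an effect. The number accounted for a median of 59.0% of the sum of squares of log2 CPM, and treatment for 17.3%, against 62.8% and 10.2% over all genes tested. ASNS (96.9%), CHAC1 (96.1%), DDIT4 (80.7%) and SESN2 (79.6%) varied mainly with the number, and SLC7A11 (53.7%) and ATF5 (57.9%) mainly with treatment. Of the DMSO libraries, replicate 3 had the highest CPM for 8 of the 10 genes, against 29.2% of all genes tested, and of the S767 libraries for 7 of the 10, against 29.4%. For 6 genes (DDIT4, ASNS, CHAC1, TRIB3, SESN2 and SLC7A11) replicate 3 was highest in both groups, which 14.3% of all genes showed. Of the 4 factors none did so in both groups, but ATF3 and DDIT3 were highest in replicate 3 in DMSO and ATF4 in S767. The 6 are not all the ATF4-induced genes of the 10, since ATF4 also induces ATF3. For DDIT4 the DMSO library of replicate 3 stood 2.86 times above the mean of the other 2, for SLC7A11 1.39 times, for ASNS 1.37 times and for TRIB3 1.26 times. The labels do not say what libraries with the same number share.

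**Figure D4:**
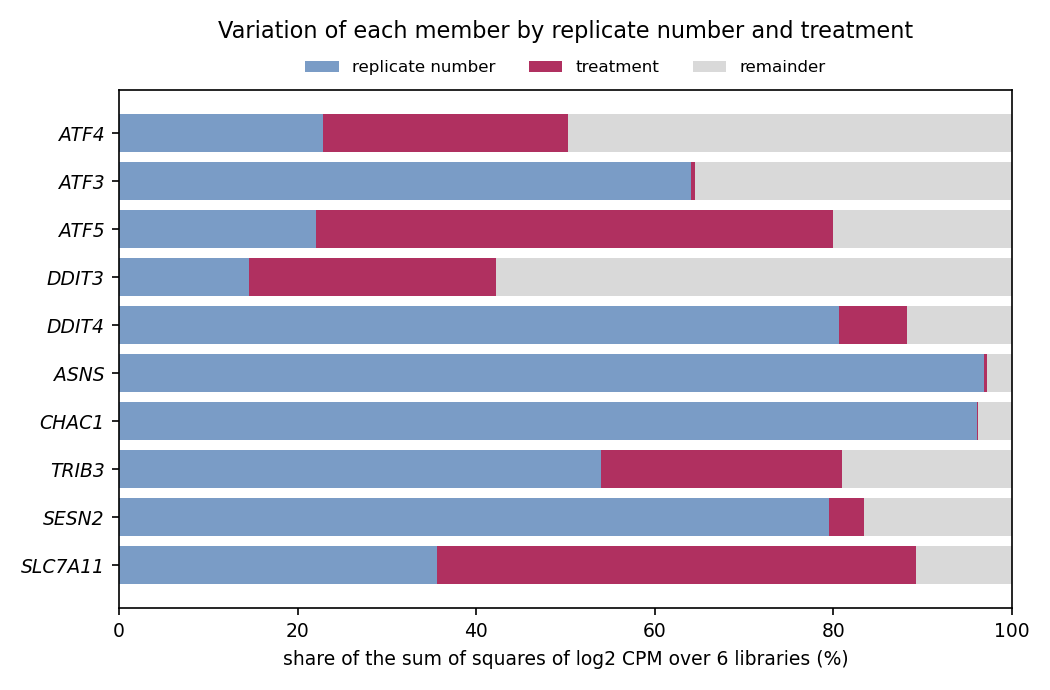
Share of the sum of squares of log2 CPM over the 6 libraries that goes with the replicate number (blue), with treatment (red) and with neither (grey), for each gene. Blue fills 96.9% of the bar of ASNS and 96.1% of that of CHAC1, and red is the longest part for ATF5 and SLC7A11.

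Another 122 genes of the pathway in 10 lists, ordered by role, were read in the same fits, and 119 of them were tested. NUPR1 and SLC6A9 had at most 8 fragments in any library and FGF21 had 0, so these 3 were not tested. Without the block, 0 of the 119 had an edgeR adjusted p under 0.05, 4 had an unadjusted P under 0.05 and 103 lay within 0.1 of 0, against 0.00483%, 3.53% and 61.4% of all genes. limma-voom called 0 of them and DESeq2 1, SESN1. With the block 5 were called higher and 4 lower, where the shares over all genes were 2.16% and 1.08%. With pair 2 left out, the block fit called 1 of them, SESN1, and 24 of all genes. With pair 1 left out it called 29 of them and 2034 of all genes.

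Upstream of ATF4, the 8 genes of the eIF2 kinases and the mitochondrial relay had a median log2 fold change of 0.06, and 0 of them passed the adjusted p in either fit. EIF2AK1, the kinase that senses heme, stood at 0.03 (SE 0.04), and EIF2AK3, the kinase of the endoplasmic reticulum also called PERK, at 0.06 (SE 0.06). With the block EIF2AK4, the amino acid sensor GCN2, reached 0.09 (edgeR adjusted p = 0.0546), EIF2AK2, the sensor of double-stranded RNA, 0.10 (edgeR adjusted p = 0.0582), OMA1, the mitochondrial protease, 0.12 (edgeR adjusted p = 0.163) and GCN1, a partner of GCN2, 0.05 (edgeR adjusted p = 0.273). The block fit with pair 1 left out called EIF2AK4 (edgeR adjusted p = 0.0324) and EIF2AK2 (edgeR adjusted p = 0.0198). Among the 8 subunits of eIF2 and eIF2B, the beta subunit EIF2S2 stood at -0.10 (SE 0.04, edgeR adjusted p = 0.0521 with the block, and called in the block fits of limma-voom at 0.0470 and DESeq2 at 0.0148) and the alpha subunit EIF2S1 at -0.06 (SE 0.03). PPP1R15A, the ATF4-induced subunit that removes the phosphate from eIF2 and also called GADD34, stood at 0.01 (SE 0.23), and at -0.0044 with the block. These are mRNA levels, and the phosphorylation through which the kinases act was not measured.

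Among the 14 bZIP partners and competitors of ATF4, the median log2 fold change was -0.04 and 1 gene was called with the block. JUN, an AP-1 subunit, fell by 0.22 (SE 0.05, edgeR adjusted p = 0.0247) in that fit, was not called with RSEM counts and the block (edgeR adjusted p = 0.0638), and without the block stood at -0.21 (SE 0.17), or between -0.36 (without S767 replicate 1) and -0.029 (without S767 replicate 2) with a library left out. JUND at -0.10, FOSL1 at -0.11, CEBPA at -0.07, CEBPB at -0.07 and CREB1, a factor that binds the cyclic AMP response element, at 0.06 did not pass the adjusted p with the block. With pair 1 left out the block fit called JUND (edgeR adjusted p = 0.000977) and FOSL1 (edgeR adjusted p = 0.0242).

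Among the targets for amino acid synthesis, PSAT1 and PHGDH, which make serine, stood at 0.06 (SE 0.10) and 0.10 (SE 0.09). Pair 1 was lower in S767 for both, and pairs 2 and 3 were higher. With pair 1 left out the block fit called both (edgeR adjusted p = 4.42e-06 and 1.70e-08), among 2034 of all genes. PCK2, the mitochondrial form of PEP carboxykinase, rose by 0.17 with the block (SE 0.03, edgeR adjusted p = 0.0183, and 1.00 without it), and was the 1 of 12 called. GPT2, an alanine transaminase, stood at 0.10 (SE 0.04, edgeR adjusted p = 0.165 with the block, and 0.00738 with pair 1 also left out). None of the 9 amino acid transporters tested was called in either fit, at a median of -0.03. SLC38A2, SLC7A1 and SLC7A5, which import neutral and cationic amino acids, stood at -0.08, -0.06 and -0.06. SLC38A2 was called in the block fit with pair 1 left out (edgeR adjusted p = 0.00229). The 13 tRNA synthetases gave a median of -0.01 with 0 called by edgeR over all libraries without or with the block, and YARS1, TARS1 and WARS1 stood at -0.08, -0.08 and 0.08. DESeq2 with the block called YARS1 (adjusted p = 0.0401) and TARS1 (adjusted p = 0.0406), and the edgeR block fit with pair 1 left out called TARS1 (adjusted p = 0.00285) and WARS1 (adjusted p = 0.000571).

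The 22 other targets of ATF4 and CHOP that were tested gave 3 genes called higher and 3 called lower with the block, against 2.16% and 1.08% of all genes. CDKN1A, the p53-induced inhibitor of the cell cycle, rose by 0.30 (SE 0.03, edgeR adjusted p = 0.000448), BBC3, the death factor PUMA, by 0.18 (SE 0.04, edgeR adjusted p = 0.0394) and TNFRSF10B, the death receptor DR5, by 0.12 (SE 0.02, edgeR adjusted p = 0.0146). All 3 are also known targets of p53. STC2, a secreted glycoprotein, fell by 0.13 (SE 0.03, edgeR adjusted p = 0.0183), SESN3 fell as given above, and LPIN1, a phosphatidate phosphatase named here after its value was seen, fell by 0.22 (SE 0.05, edgeR adjusted p = 0.0427). Without the block none of the 6 called genes passed the adjusted p. With the block, the call of BBC3 was lost in limma-voom (adjusted p = 0.0519) and with RSEM counts (edgeR adjusted p = 0.0518), and LPIN1 was not called in limma-voom, in DESeq2 or with RSEM counts. Among the 18 genes of the ATF6 and XBP1 arms of the unfolded protein response, 0 were called in either edgeR fit. HSPA5, the chaperone BiP and the usual marker of stress in the endoplasmic reticulum, measured 856, 838 and 740 CPM in DMSO and 844, 856 and 743 CPM in S767, a log2 fold change of 0.0052 (SE 0.07). XBP1, ATF6 and EDEM1 stood at -0.09, 0.07 and -0.07, and XBP1 was called in the block fits of limma-voom (adjusted p = 0.0327) and DESeq2 (adjusted p = 0.0069). In the families of TRIB3, SESN2 and DDIT4, TRIB1 stood at -0.12 (SE 0.32) and DDIT4L at -0.47 (SE 0.38, edgeR adjusted p = 0.127 with the block), at 0.698 to 2.44 CPM. The value for DDIT4L ran from -0.94 (without S767 replicate 1) to -0.17 (without S767 replicate 2), its pairs differed by 0.08, -0.71 and -0.98 on the log2 scale, and the block fit with pair 1 left out called it (log2 fold change -0.88, edgeR adjusted p = 6.19e-07). That fit also called TRIB1 (edgeR adjusted p = 4.20e-05), XBP1 (edgeR adjusted p = 0.00179) and EDEM1 (edgeR adjusted p = 0.0346).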

How the data were processed

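Stranded mRNA libraries of OCI-AML5 cells were sequenced by the authors, and the submitters' processing notes name STAR 2.7.1a, RSEM 1.2.28 and GRCh38. The annotation release is not given in the sources used here. The authors deposited raw STAR counts per gene without normalization (unstranded and for each strand), and RSEM expected counts with TPM and effective lengths. The effective length is another deposited measurement, in bases. Reverse-strand counts were used, since forward counts made up 6.44 to 6.58%, and 4 summary lines (20.3% of fragments) were left out. Library totals ran from 149994700 to 258029564.

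Genes were kept with filterByExpr (minimum count 10), normalized with TMM and tested in R 4.3.3 by the quasi-likelihood method of edgeR 4.0.16. Adjusted p-values are Benjamini-Hochberg values over 20725 genes. CPM uses TMM-scaled library sizes. RSEM expected counts were rounded to whole numbers. The code was also run on simulated data with replicate effects built in. Such data favour the fit with the block by design, so no call made here rests on them. Single genes were also compared by exact permutation of log2 CPM (prior count 2). Alternatives used limma 3.58.1 and DESeq2 1.42.0, other scaling and filters, unstranded counts, TPM, the replicate block, and each library or pair left out.

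Libraries with the same number were taken as pairs. Their deviations from group means correlated at 0.779, 0.872 and 0.754 over 6191 genes with a mean log2 CPM above 5. The pairing comes from these values. No 2 libraries agreed within sampling noise (chi-square per gene 15.2 or more). The members and lists were chosen with earlier results of these data known. Genes named are the 10 members, and from each other list those with P under 0.05 in either fit (at most 5 by P) plus EIF2AK1, EIF2AK3, PPP1R15A, CEBPB, HSPA5, PSAT1 and PHGDH. Positions are those of GENCODE 29, and sequences come from RefSeq.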

Additional observations from a re-analysis of the deposited data

How the results depend on the processing

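Over 24 alternatives to the edgeR fit without the replicate block, the direction of ATF4, ATF5, TRIB3 and SLC7A11 held, and SLC7A11 ranged from -0.61 to -0.28 on the log2 scale. The number of the 10 genes called was 0 in 16 alternatives. It was 1, SLC7A11, with the replicate block in edgeR, limma-voom, DESeq2, with library size alone or with RSEM expected counts, fits that called 670, 609, 630 and 617 of 20725 genes and 394 of 18851. With the block and 1 pair left out it was 1 to 3, DDIT4 and TRIB3 being added without replicate 1. Genes past a P of 0.05 and a log2 fold change of 0.4 in either direction numbered 2 (DDIT4 and SLC7A11) with limma-voom and the block (143 higher and 265 lower over all genes), 0 on log2(TPM + 1) (18 and 18) and 0 on log2(TPM + 0.1) (112 and 161), and 0 to 2 with a library or pair left out. The median log2 fold change ran from -0.15 to 0.069 with a library left out.

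The number of the 119 other pathway genes called was 1 with DESeq2, 1 with no limit on low counts, 9 with the replicate block in edgeR, 9 with limma-voom and the block, 12 with DESeq2 and the block, 10 with the block and library size alone, and 6 with RSEM counts and the block. With the block and a pair left out it ran from 1 to 29. Over all genes, the block raised calls from 1 to 670, and with a pair left out the count was 2034 without replicate 1, 24 without replicate 2 and 636 without replicate 3. DESeq2 without the block called 25.

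In the fit without the block, leaving out 1 library moved the value by over 1.5 times or turned its sign for 39 of the 47 named genes. Among those called with the block, the range was 0.083 to 0.24 for PCK2, 0.12 to 0.52 for CDKN1A, 0.039 to 0.20 for TNFRSF10B, -0.20 to -0.068 for STC2 and -0.23 to -0.033 for SESN3. Signs turned as follows. ASNS became 0.24 with RSEM counts, 0.23 with those and the block, 0.17 on log2(TPM + 1) and 0.18 on log2(TPM + 0.1). ATF3 became 0.0010 on log2(TPM + 1) and 0.0027 on log2(TPM + 0.1). CHAC1 became -0.051 with limma-voom, and DDIT3 -0.015 without regard to strand. PPP1R15A became -0.0044 with the block, -0.0012 with limma-voom and the block, -0.0073 with DESeq2 and the block, -0.0081 with library size alone and the block, -0.014 with RSEM counts and the block, -0.027 on log2(TPM + 1) and -0.029 on log2(TPM + 0.1), and HSPA5 became -0.0089 on either TPM scale. With the block and 1 pair left out, ASNS became 0.045 and PPP1R15A -0.036 without replicate 1, CHAC1 -0.078, SESN2 -0.026, PPP1R15A -0.057 and HSPA5 -0.0095 without replicate 2, and ATF3 0.091 and PSAT1 -0.018 without replicate 3. With 1 library left out, the log2 fold change ran from -0.27 to 0.13 for ASNS, from -0.13 to 0.080 for ATF3, from -0.62 to 0.70 for CHAC1, from -0.74 to 0.22 for DDIT4, from -0.068 to 0.13 for SESN2, from -0.16 to 0.026 for CEBPB, from -0.24 to 0.010 for FOSL1, from -0.022 to 0.25 for GPT2, from -0.057 to 0.066 for HSPA5, from -0.015 to 0.19 for PHGDH, from -0.27 to 0.23 for PPP1R15A, from -0.061 to 0.15 for PSAT1 and from -0.48 to 0.29 for TRIB1. Leaving out 1 library keeps the other of its pair, so differences between replicate numbers enter these ranges of the fit without the block. Over the fits with the block, CHAC1 ran from -0.078 to 0.20, ASNS from -0.095 to 0.23 and PPP1R15A from -0.057 to 0.075. The cause of each sign turn was not tested.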
